A study of Homo sapiens with 16 samples.

Results

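The genes examined here encode the factors that start and extend the protein chain on cytosolic ribosomes. They were taken by name: every gene of the deposited expression table whose symbol begins with EIF1 to EIF6, EEF1 or EEF2, leaving out the EIF2AK kinases and the pseudogenes. The rule gave 59 members of 10566 genes in that table. The count table lists 73 names under the same rule, and the 14 others had too few counts for the expression filter. By role, as read from the gene name, 7 members fall under start codon scanning, 5 under eIF2 and initiator tRNA delivery and 5 under eIF2B. Another 13 carry eIF3 names, 13 belong to eIF4 and its regulators and 4 are eIF5A or eIF6 genes. A further 6 carry elongation factor names and 5 are enzymes that modify elongation factors. EIF1AD, under scanning, and EEF1E1, under elongation, are placed by name alone. The remaining member, EIF3J-DT, is a divergent transcript named after EIF3J and does not code for a factor.

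Initiation begins when eIF2 brings the initiator tRNA to the small ribosomal subunit, which eIF1, eIF1A, eIF3 and eIF5 help to scan the messenger RNA, and when eIF4F, made of the cap-binding protein eIF4E, the scaffold eIF4G and the helicase eIF4A, prepares the capped end. The exchange factor eIF2B recharges eIF2 with GTP and is inhibited in the integrated stress response, whereas the 4E-binding proteins hold eIF4E until mTORC1 phosphorylates them. During elongation eEF1A delivers aminoacyl-tRNAs, the eEF1B subunits recharge eEF1A, eEF2 moves the ribosome along and eIF5A, which carries the modified residue hypusine, assists at slow steps. Several of these mRNAs begin with a pyrimidine run, the 5′ terminal oligopyrimidine (5′ TOP) motif, through which their translation follows mTORC1.

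Spheroids were grown from 3 established human prostate cancer cell lines, each a single line of long standing: LNCaP, which depends on androgen and is sensitive to enzalutamide, 22Rv1, which responds to androgen and resists enzalutamide, and PC3, which grows without androgen. Cells received 25 pmol of a non-targeting siRNA pool (siCtrl) or of a pool against MED12 (siMED12), stayed in flat culture for 3 days and then formed spheroids for 4 days. MED12 is a subunit of the kinase module of Mediator, which links transcription factors to RNA polymerase II, and the knockdown is transient. Each line had 3 siCtrl libraries, LNCaP had 3 siMED12 libraries, and 22Rv1 and PC3 each had 2 siMED12 libraries, numbered 1 and 3. The study's methods describe the replicates as biological.

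Total counts of the 16 libraries ran from 479118 to 993807, and a count of 3, taken as the level that a count of 0 cannot exclude, was 3.02 to 6.26 CPM (counts scaled to a common library total), a limit that covers counting error only. MED12 itself was weakly counted: it ran from 9.94 to 12.9 CPM in LNCaP siCtrl and 6.67 to 10.3 in LNCaP siMED12, from 16.7 to 23.4 and 7.42 to 8.98 in 22Rv1, and from 8.41 to 28.4 and 14.5 to 15.8 in PC3. The PC3 groups overlapped, and no line passed the test (edgeR quasi-likelihood adjusted p = 0.878 in LNCaP, 0.175 in 22Rv1 and 0.987 in PC3). The study reports, from its own separate measurements, that the knockdown was highly efficient in mRNA and protein and also in its spheroids. The 7 genes fixed for PC3 summed to 3068 to 3993 CPM in PC3 against 49.4 to 413 elsewhere. Replicate 3 of 22Rv1 siMED12 stood apart in this list, with 413 CPM where the other 22Rv1 libraries had 177 to 215. It held 11 genes restricted to PC3 at 5.34% of their PC3 level, against 0.896% in replicate 1 of siMED12. The 22Rv1 siCtrl libraries held 0.435% to 0.584%, but these genes were picked for low levels in siCtrl of LNCaP and 22Rv1. Replicate 3 of PC3 siMED12 held 6 genes shared by LNCaP and 22Rv1 at 2.4% of their LNCaP level, against 0.706% in replicate 1 of siMED12. The PC3 siCtrl libraries held 0.515% to 0.75%, where low levels were again part of the choice. Replicate 3 of PC3 siCtrl held 7 genes restricted to 22Rv1 at 2.6% of their 22Rv1 level, against 0.309% to 1.26% in the other PC3 libraries. Whether these values take part in any result below was not tested. After siMED12, member counts, medians over all members and log2 values of members named for a small p are also given without these siMED12 libraries. The levels, the ranges of fixed members and the eIF3 and 5′ TOP medians include them. Comparisons between siCtrl lines include replicate 3 of PC3 siCtrl unless stated.

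The members took 2.08% to 2.82% of all counts in a library, and the gene of the main elongation factor, EEF1A1, supplied 41.6% to 53.8% of that share. Because the assay sequences tags from the 3′ ends of transcripts, a count is not set by transcript length. CPM values were scaled between libraries with TMM factors (a trimmed mean of log ratios). Setting levels side by side across genes also rests on how tags were assigned to genes, which was not tested. Pseudogenes took 29.0% to 30.7% of the joint CPM with EEF1A1 and 54.1% to 64.8% of that with EEF1B2. In siCtrl spheroids EEF1A1 stood at 13635 ± 1041 CPM in LNCaP, 12066 ± 1043 in 22Rv1 and 9790 ± 596 in PC3 (mean ± SD, n = 3). EIF1, EEF2, EEF1A2 and EIF5A followed in LNCaP at 2682 ± 227, 1313 ± 105, 1139 ± 63.3 and 766 ± 80.3 CPM. Scarce members lay near the limit of detection, among them EIF5A2, the second eIF5A gene, at 5.34 ± 4.66 CPM in LNCaP.

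Among the 14 names left out, 6 had 0 counts in all 16 libraries. They included EIF4A1, the usual helicase of eIF4F, and EEF1G, the gamma subunit of eEF1B, while EIF3L, a subunit of eIF3, had 7 counts in all and at most 2 in a library. A count of 0 is no sign that these genes are silent. In Gencode 44, 47.4% of the exonic bases of EIF4A1 (chr17:7572824-7579006, plus strand), 99.7% of those of EEF1G (chr11:62559596-62574086, minus strand) and 41.1% of those of EIF3L (chr22:37848868-37889407, plus strand) also belong to another gene of the same strand, among them the read-through gene SENP3-EIF4A1. No member shared more than 50% of its exonic bases in this way, but EIF4A1 and EIF3L lie under that cut too. The member EEF1AKMT4 shared 49.2%, more than EIF4A1. Whether overlap set these counts was not tested, and the 3 genes are not described further. EEF1AKMT3, a methyltransferase of eEF1A, had 2 to 14 counts in a library, EIF2S3B, a copy of EIF2S3, had at most 5, and the other left-out names had at most 4.

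The first comparison asked which of these mRNAs differed after siMED12 within a line. A member was called when its adjusted p in the edgeR quasi-likelihood test, corrected over all 10566 genes of the comparison, was under 0.05. In 22Rv1, 1 of 59 members was called, EIF2D, where 1.84% of all tested genes were called. In LNCaP 0 of 59 were called, against 0.416% of all genes, and in PC3 0 of 59, against 0%. These counts came from the main fit, which did not pair libraries. Same-numbered LNCaP libraries deviated together. A separate fit with the replicate number as a block called 2 of 59 LNCaP members, EIF2A and EIF1, against 1.11% of all genes. When replicate 3 of siMED12 was left out, the counts stayed at 1 in 22Rv1, against 1.12% of all genes, and 0 in PC3. By unadjusted p under 0.05 in edgeR the counts were 7 of 59 members in LNCaP, against 7.34% of all genes, 3 in 22Rv1, against 11.7%, and 2 in PC3, against 4.99%. DESeq2 called 0 members in each of the 3 lines, against 0.274%, 0.804% and 0% of all genes. The limma test on the deposited log2 CPM called 0 members in LNCaP, against 0.274%, 1 in 22Rv1, against 1.29%, and 0 in PC3, against 0.00946%.

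The fold changes of the members were small. The median log2 fold change of the 59 was −0.12 in LNCaP, −0.04 in 22Rv1 and −0.06 in PC3, beside medians over all tested genes of −0.0038, 0.0061 and −0.04. The median of the members without replicate 3 of siMED12 was 0.00296 in 22Rv1 and −0.0746 in PC3. In LNCaP 44 members lay below 0 and 15 above, in 22Rv1 36 and 23, and in PC3 38 and 21. The median standard error (SE) of a member's log2 fold change was 0.18 in LNCaP, 0.20 in 22Rv1 and 0.18 in PC3. This is the error of a single gene, and the spread of a median over the members was not estimated. The eIF3 members had a median of −0.15 in LNCaP with 12 of 13 below 0. Their median was −0.04 in 22Rv1 with 8 of 13 below 0 and −0.08 in PC3 with 10 of 13. The 12 members on the fixed list of 5′ TOP mRNAs had a median of −0.15 in LNCaP with 12 of 12 below 0. In 22Rv1 it was −0.01 with 7 of 12 below 0, and in PC3 −0.08 with 10 of 12. EIF3A, EIF3E, EIF3F and EIF3H belong to both sets. Since the list was drawn up with earlier results of these data known, these counts carry no test.

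**Figure D1:**
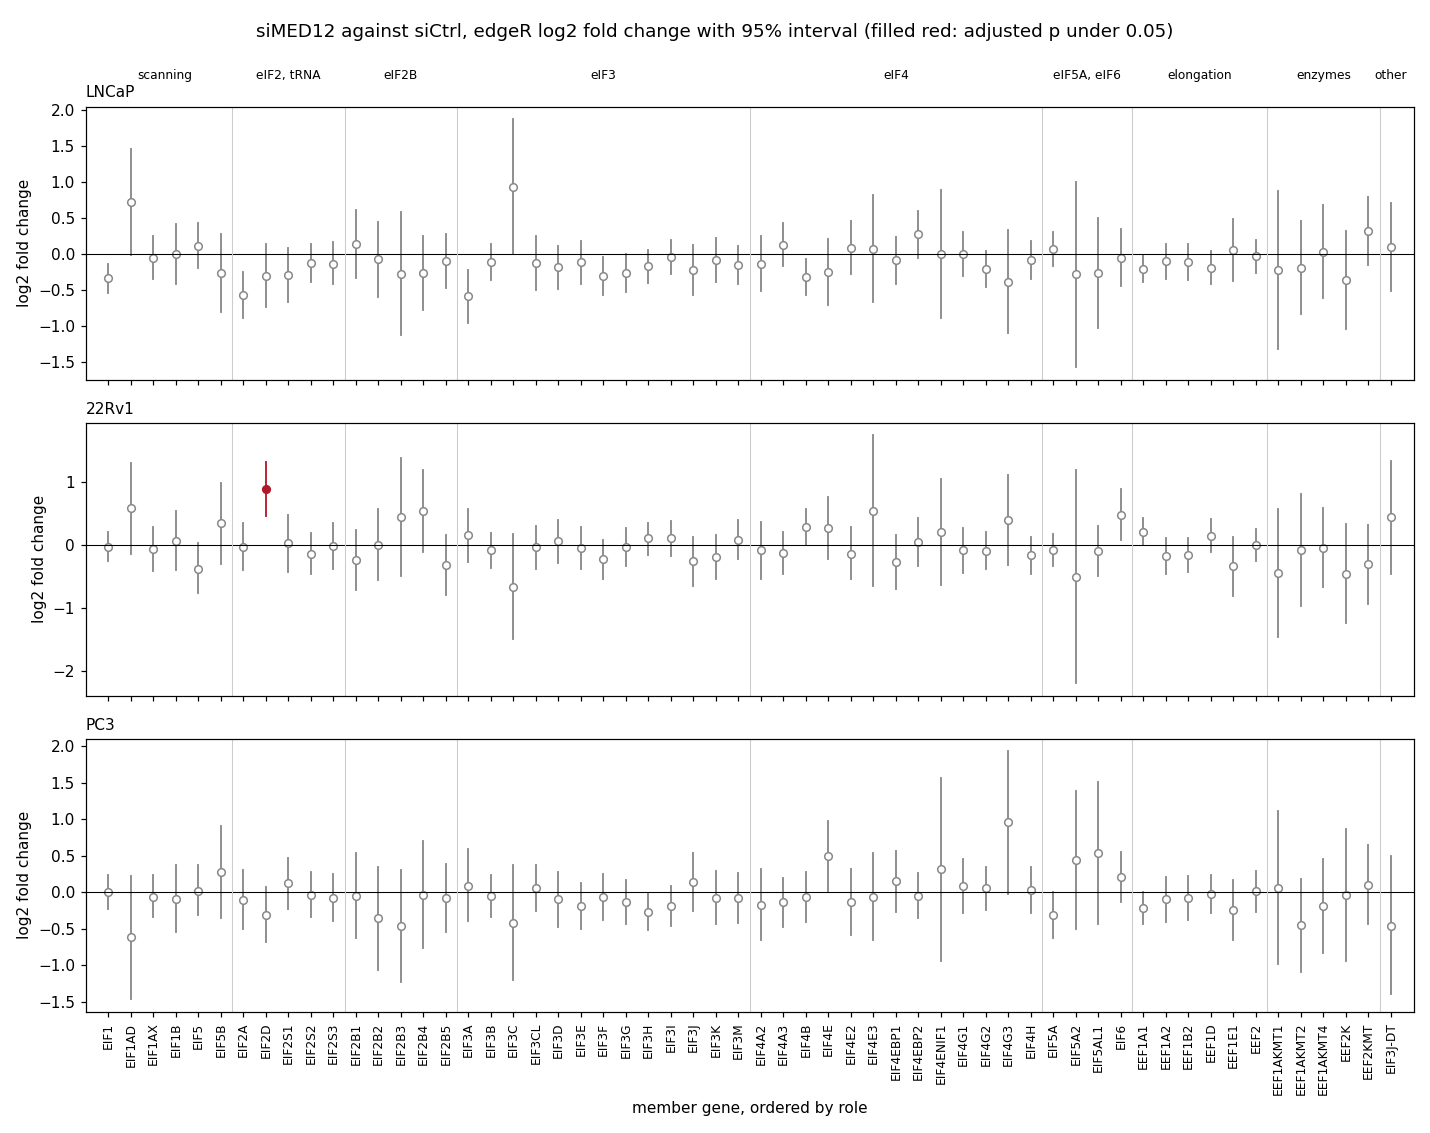
Log2 fold change of siMED12 against siCtrl (y axis) for each member ordered by role (x axis), 1 panel per line, with 95% intervals from the edgeR fit and filled red points for adjusted p under 0.05. EIF2D in 22Rv1, at 0.89, is the called member in this fit, which does not pair libraries, and most intervals in each panel include 0. EIF1AY is not drawn.

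EIF2D, which can place initiator tRNA on the ribosome independently of eIF2 and takes part in ribosome recycling, was higher after siMED12 in 22Rv1. The 22Rv1 siCtrl libraries held 61.2, 58.5 and 47.5 CPM and the siMED12 libraries 112 and 92.3 CPM. Both siMED12 values lay above every siCtrl value, on raw counts of 106 and 72 against 35 to 47. The log2 fold change was 0.89 (SE 0.21, 95% interval 0.46 to 1.32), a 1.85-fold higher level, with an edgeR adjusted p of 0.0186. EIF2D stood at 173 ± 30.8 CPM in PC3 siCtrl, and replicate 3 of 22Rv1 siMED12 is the library that held PC3-restricted transcripts at 5.34%. Leaving that library out gave 1.02 on the log2 scale (edgeR adjusted p = 0.0303). The call was lost without replicate 1 of siMED12 (log2 fold change 0.73, edgeR adjusted p = 0.327), without replicate 3 of siCtrl (0.77, adjusted p = 0.106) and with DESeq2 (0.89, adjusted p = 0.0567).

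In the other lines EIF2D did not pass the test. LNCaP siCtrl held 61.3, 70.2 and 57.2 CPM and siMED12 57.4, 38.7 and 56.3, and the groups overlapped (log2 fold change −0.30, SE 0.21, edgeR adjusted p = 0.824). PC3 siCtrl held 138, 184 and 197 CPM and siMED12 137 and 143, again with overlap (−0.31, SE 0.18, adjusted p = 0.974). Tested as a difference between effects, the siMED12 effect on EIF2D was larger in 22Rv1 than in LNCaP by 1.18 on the log2 scale (95% interval 0.58 to 1.79, edgeR adjusted p = 0.107) and lower in PC3 than in 22Rv1 by −1.19 (−1.76 to −0.63, adjusted p = 0.0708). Neither difference passed the threshold. Without replicate 3 of 22Rv1 siMED12 they were 1.31 (edgeR adjusted p = 0.109) and −1.32 (adjusted p = 0.0705), and without replicate 3 of PC3 siMED12 the second was −1.22 (adjusted p = 0.182). With the replicate number as a block both passed, at 1.21 (edgeR adjusted p = 0.0377) and −1.14 (adjusted p = 0.0420), where 0.672% and 0.691% of all genes were called.

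In LNCaP the 3 members with the smallest p were EIF2A, EIF1 and EIF3A, each below its control. EIF2A, a factor that can deliver initiator tRNA without eIF2, held 147, 209 and 175 CPM in siCtrl and 113, 123 and 123 in siMED12, a log2 difference of −0.57 (SE 0.16, adjusted p by edgeR = 0.155). EIF1, which guards start codon choice, held 2421, 2818 and 2808 CPM in siCtrl and 2065, 2092 and 2225 in siMED12, a log2 difference of −0.33 (SE 0.10, adjusted p by edgeR = 0.213). EIF3A, the largest eIF3 subunit, held 97.8, 98.8 and 108 CPM in siCtrl and 62.9, 77.4 and 64.4 in siMED12, a log2 difference of −0.58 (SE 0.18, adjusted p by edgeR = 0.238). None of the 3 passed the threshold over 10566 genes in the main fit, which did not pair libraries. In each, every siMED12 library lay below every siCtrl library, but the genes were picked for a small p. EEF1A1, EIF3F, EIF3G, EIF3M, EIF4B, EIF4G2 and EEF2K also lay below without overlap, and EIF4EBP2 and EEF2KMT above. The share of such genes among all tested genes was not computed, so this list is not a result about the members as a set. Same-numbered LNCaP libraries deviated together, so the fit with the replicate number as a block is given beside these values: with it EIF2A and EIF1 passed (log2 fold changes −0.56 and −0.33, edgeR adjusted p = 0.0382 for each).

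**Figure D2:**
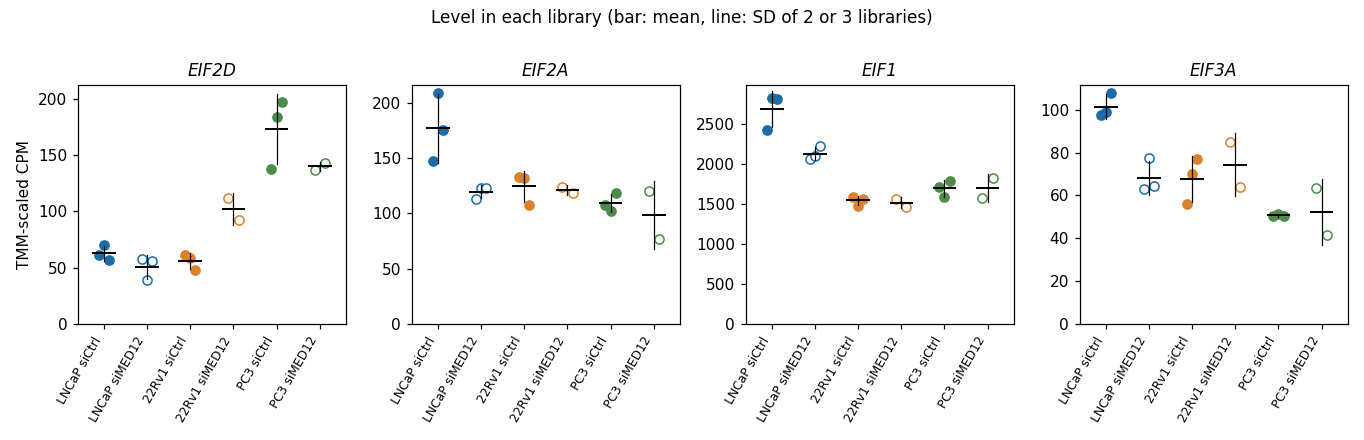
Level of EIF2D, EIF2A, EIF1 and EIF3A in each of the 16 libraries (y axis, TMM-scaled CPM, starting at 0) by line and treatment (x axis, filled siCtrl, open siMED12), with the group mean and SD. Both 22Rv1 siMED12 libraries of EIF2D sit above the 3 siCtrl libraries, and the 3 LNCaP siMED12 libraries of the other genes sit below their controls.

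Next to EIF2D in 22Rv1 the smallest p belonged to EIF6, which keeps free large ribosomal subunits from joining (siCtrl 58.6, 70.2 and 64.2 CPM, siMED12 82.7 and 96.2). Its log2 fold change was 0.48 (SE 0.20, edgeR adjusted p = 0.302). EIF4B, a helper of the helicase eIF4A, came next at 0.28 (SE 0.14, edgeR adjusted p = 0.42), with 483, 600 and 583 CPM in siCtrl and 780 and 562 in siMED12, so that its groups overlapped. Without replicate 3 of siMED12 these values were 0.37 for EIF6 and 0.49 for EIF4B, and neither gene was called. In PC3 the smallest p belonged to EIF3H (−0.27, SE 0.12), EIF4E (0.49, SE 0.23) and EEF1A1 (−0.22, SE 0.11), each at an edgeR adjusted p of 0.974. EIF4E held 50.3, 52.6 and 53.5 CPM in PC3 siCtrl and 62.0 and 89.2 in siMED12, the higher value in the replicate that also carried transcripts of the other lines, and without that replicate its log2 difference was 0.25 (edgeR adjusted p = 0.915). Those of EIF3H and EEF1A1 were then −0.31 and −0.26 (edgeR adjusted p = 0.812 and 0.806).

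Taken as a mean over the 3 lines, the siMED12 effect called 0 of 59 members, against 0.265% of all genes. Smallest in p were EIF3F at −0.20 (SE 0.08, edgeR adjusted p = 0.494), EIF2A at −0.23 (SE 0.10, adjusted p = 0.52) and EIF6 at 0.21 (SE 0.11, adjusted p = 0.604). These were, without replicate 3 of 22Rv1 siMED12, −0.12, −0.22 and 0.18, without replicate 3 of PC3 siMED12 −0.155, −0.154 and 0.187, and 0 members were called in either case. The differences between the effects of 2 lines also called 0 members each, against 0.189% of all genes for 22Rv1 and LNCaP, 0.0284% for PC3 and LNCaP and 0.0946% for PC3 and 22Rv1. These counts were also 0 without either library. By unadjusted p under 0.05 in edgeR there were 2 of 59 members for the mean, against 8.52% of all genes, and 7, 7 and 4 for the differences, against 8.28%, 5.02% and 9.16%. DESeq2 called 0 members in each, against 0.341%, 0.17%, 0.0284% and 0.151% of all genes in the same order, and limma 0 in each, against 0.274%, 0.123%, 0.0189% and 0.104%. After EIF2D, the smallest p for 22Rv1 against LNCaP belonged to EIF4B (0.60, SE 0.18, edgeR adjusted p = 0.307) and EEF1A1 (0.40, SE 0.14, adjusted p = 0.387). They were, with replicate 3 of 22Rv1 siMED12 left out, 0.81 (edgeR adjusted p = 0.0818) and 0.43 (adjusted p = 0.419). For PC3 against LNCaP they were EIF1AD, a gene named for its similarity to eIF1A, at −1.34 (SE 0.55, adjusted p = 0.941), EIF4E at 0.74 (SE 0.32, adjusted p = 0.951) and EIF3C at −1.36 (SE 0.60, adjusted p = 0.951). Without replicate 3 of PC3 siMED12 these were −1.17, 0.50 and −1.34, and that of EIF3C was −0.19 without replicate 2 of LNCaP siMED12. For PC3 against 22Rv1 they were EIF2D, EEF1A1 (−0.42, SE 0.15, edgeR adjusted p = 0.336) and EIF1AD (−1.20, SE 0.54, adjusted p = 0.502). EEF1A1 and EIF1AD stood at −0.45 and −1.36 without replicate 3 of 22Rv1 siMED12, and at −0.47 and −1.03 without replicate 3 of PC3 siMED12.

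Of the members fixed for naming, 21 passed the filter, and their log2 fold changes after siMED12 ran from −0.58 (EIF3A) to 0.28 (EIF4EBP2) in LNCaP, from −0.51 (EIF5A2) to 0.48 (EIF6) in 22Rv1 and from −0.32 (EIF5A) to 0.49 (EIF4E) in PC3. The cap-binding protein gene EIF4E held 50.7 ± 5.30 CPM in LNCaP siCtrl and 42.6 ± 3.14 in siMED12, and 46.7 ± 11.3 and 54.8 ± 14.0 in 22Rv1. EEF2 had 1313 ± 105 and 1286 ± 191 CPM in LNCaP, 1035 ± 39.4 and 1031 ± 59.5 in 22Rv1, and 478 ± 42.2 and 480 ± 45.1 in PC3, and its 95% intervals ran from −0.26 to 0.20, −0.26 to 0.25 and −0.27 to 0.29. EIF5A, whose intervals were −0.16 to 0.31, −0.33 to 0.17 and −0.63 to 0.00, held 808 ± 91.6, 1546 ± 15 and 200 ± 31.0 CPM after siMED12.

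The starts of 6 of these genes are shown because the 5′ TOP list turns on the first bases of the transcript. They were taken from RefSeq on GRCh38.p14, whose promoter table held 48 of the 59 members. Each runs from 60 bases before the RefSeq start through its first 10 bases, and capitals mark an unbroken pyrimidine run of at least 5 bases that opens with C at that start. EIF2D, at chr1:206612456-206612525 on the minus strand, and EIF2A, at chr3:150546727-150546796 on the plus strand, are members with a small p after siMED12 that are not on the 5′ TOP list. EEF1A1, at chr6:73521023-73521092 on the minus strand, EEF2, at chr19:3985454-3985523 on the minus strand, and EIF4B, at chr12:53006396-53006465 on the plus strand, are on it. EIF5A, at chr17:7306939-7307008 on the plus strand, has no such run and is shown for contrast.
EIF2D: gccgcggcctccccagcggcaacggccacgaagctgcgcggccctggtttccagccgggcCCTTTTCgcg
EIF2A: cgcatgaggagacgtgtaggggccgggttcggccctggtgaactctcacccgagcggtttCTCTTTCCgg
EEF1A1: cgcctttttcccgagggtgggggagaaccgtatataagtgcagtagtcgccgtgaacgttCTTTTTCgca
EEF2: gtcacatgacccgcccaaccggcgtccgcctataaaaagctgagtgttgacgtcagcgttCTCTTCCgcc
EIF4B: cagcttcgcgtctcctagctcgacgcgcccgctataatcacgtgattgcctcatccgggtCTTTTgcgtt
EIF5A: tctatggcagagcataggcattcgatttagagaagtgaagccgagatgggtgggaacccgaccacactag

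Such a run opened 11 of the 48 member starts, 22.9%, and 4.04% of all 27305 RefSeq starts. Of the 7 matched members on the 5′ TOP list 6 had it, and EEF1B2 did not. The sequence CACGTG, which reads the same on both strands and is the motif that MYC and related factors bind, lay within 250 bases before to 50 bases after the start of 12 of the 48 members, 25%, and of 7.43% of all RefSeq starts. EIF4E, EIF4G1, EIF5A2 and EEF1AKMT4 held it in more than one place. These are letter matches at annotated starts and give no measure of binding. The RefSeq starts include genes outside the 10566 tested, whereas the members passed an expression filter. The shares among starts of the tested genes were not computed.

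The second comparison set the siCtrl spheroids of the lines against each other. Far more members were called than after siMED12, but so were far more of all tested genes. Both directions counted, 42.4% of members were called between 22Rv1 and LNCaP, 57.6% between PC3 and LNCaP and 50.8% between PC3 and 22Rv1. These shares lay near those of all genes, which are given next. Between 22Rv1 and LNCaP 25 of 59 members were called, where 43.2% of all genes were: 5 members were higher in 22Rv1, against 22% of all genes, and 20 lower, against 21.2%. Between PC3 and LNCaP 34 were called against 54.7% of all genes, 16 higher in PC3 against 29.2%, and 18 lower against 25.5%. Between PC3 and 22Rv1 30 were called against 54.9%, 19 higher in PC3 against 28.7%, and 11 lower against 26.1%. The members' median log2 differences were −0.28, −0.09 and 0.18, beside 0, 0.05 and 0.01 over all genes. The 3 comparisons share libraries, and line, genotype and growth habit cannot be told apart in them. In spheroids fewer cells making an mRNA and less of it per cell cannot be told apart either.

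**Figure D3:**
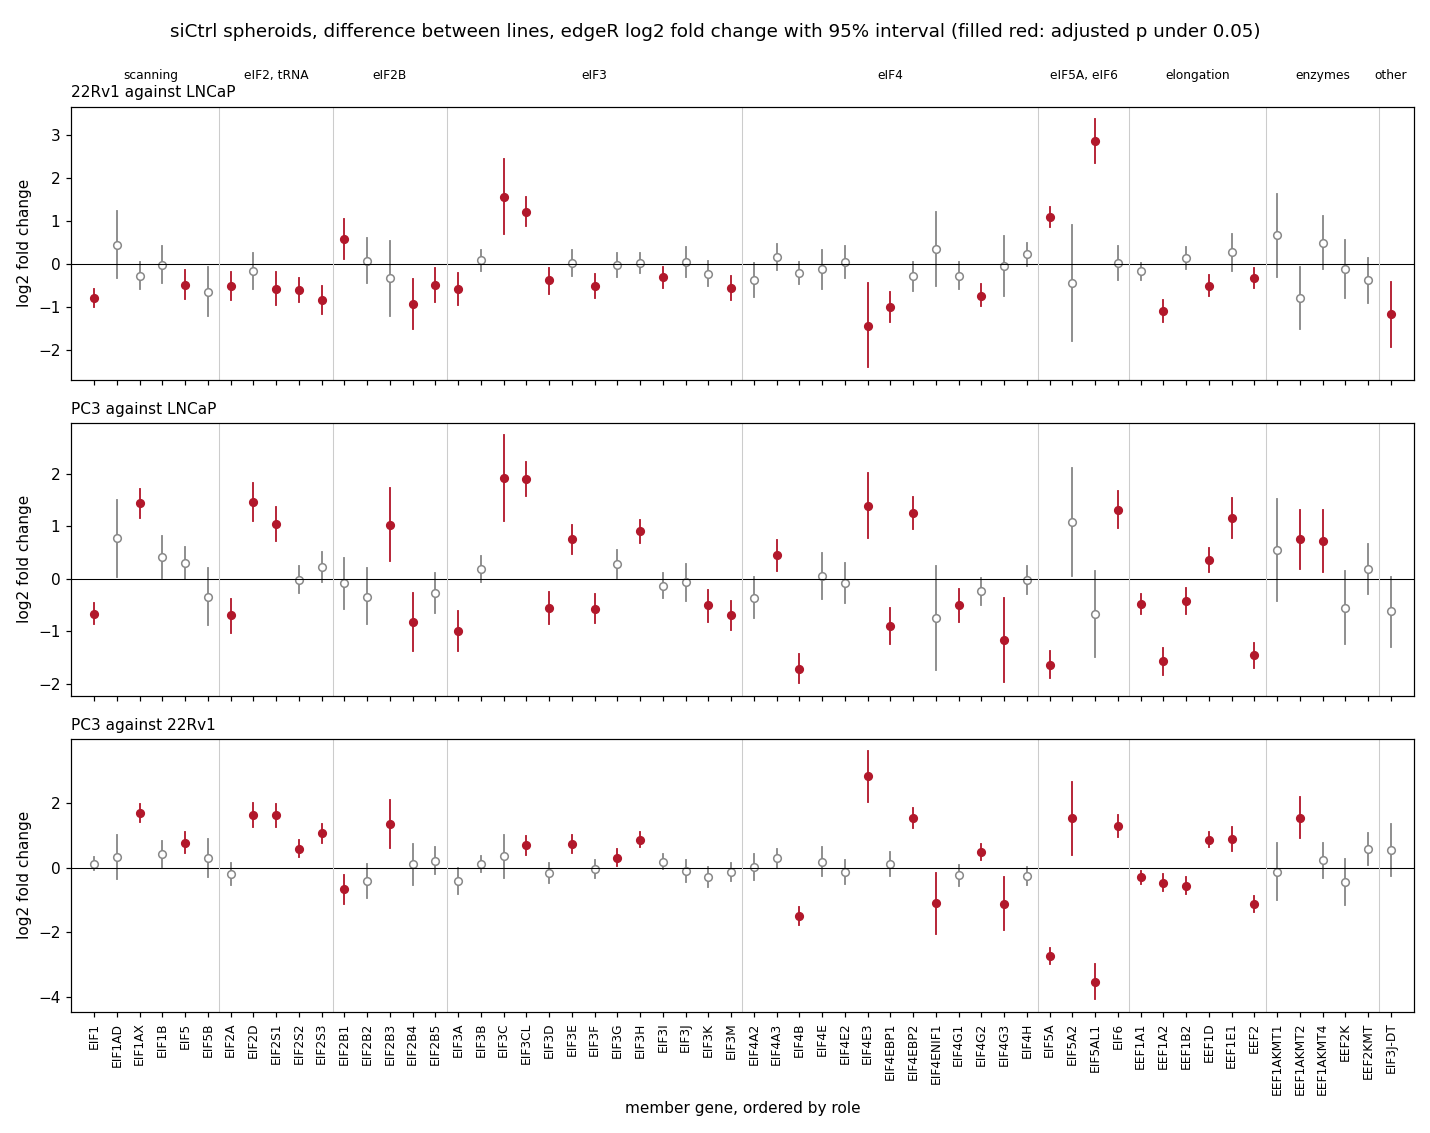
Log2 difference between lines in siCtrl spheroids (y axis) for each member ordered by role (x axis), 1 panel per pair of lines, with 95% intervals from the edgeR fit and filled red points for adjusted p under 0.05. EIF5A is 2.73 lower in PC3 than in 22Rv1 and EIF1AX is 1.71 higher, while EIF2S1, EIF2S2 and EIF2S3 are lower in 22Rv1 than in both other lines. EIF1AY is not drawn.

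EIF5A separated the lines most widely among the abundant members. LNCaP siCtrl held 823, 675 and 801 CPM, 22Rv1 held 1694, 1564 and 1639, and PC3 held 221, 263 and 254, with no overlap between lines. The log2 difference was 1.09 for 22Rv1 against LNCaP (SE 0.11, edgeR adjusted p = 2.4e-09), −1.64 for PC3 against LNCaP (SE 0.12, adjusted p = 7.9e-13) and −2.73 for PC3 against 22Rv1 (SE 0.12, adjusted p = 4.0e-18). The copy EIF5AL1 was likewise highest in 22Rv1, with 103 to 137 CPM in 22Rv1 siCtrl, while its ranges in LNCaP, 9.94 to 22.3, and PC3, 6.45 to 14.4, overlapped. Its coding sequence is 98.9% identical to that of EIF5A in Gencode 44, and the last 300 transcript bases are 47% identical where they align. How tags were split between the copies was not tested and stays uncertain. EIF5A2, whose coding sequence is 71.9% identical, differed in the other direction: 12.2 ± 5.04 CPM in PC3 against 4.26 ± 0.657 in 22Rv1 (log2 difference 1.53, SE 0.55, edgeR adjusted p = 0.0196), at counts near the limit of detection. That call was lost without replicate 1 or 3 of 22Rv1 (adjusted p = 0.0572 and 0.0595 by edgeR), without replicate 2 or 3 of PC3 (0.106 and 0.0534) and with DESeq2 (0.0802). EIF6 held 135, 171 and 162 CPM in PC3 against 69.6, 71.6 and 50.9 in LNCaP, a log2 difference of 1.31 (SE 0.17, edgeR adjusted p = 7.9e-08), and did not differ past the threshold between 22Rv1 and LNCaP (0.02, 95% interval −0.37 to 0.42).

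The subunits of eIF2 itself were lowest in 22Rv1. The alpha subunit gene EIF2S1, whose product is the target of the stress kinases, held 81.2, 97.4 and 117 CPM in LNCaP, 79.4, 66.9 and 53.9 in 22Rv1, and 190, 235 and 189 in PC3. Its log2 difference was −0.58 for 22Rv1 against LNCaP (SE 0.19, edgeR adjusted p = 0.0142) and 1.62 for PC3 against 22Rv1 (SE 0.17, adjusted p = 2.1e-09). The PC3 values lay above all others, and those of LNCaP and 22Rv1 lay just apart, 81.2 against 79.4. The difference between these lines lost its call without replicate 3 of LNCaP (−0.41, edgeR adjusted p = 0.147) and without replicate 3 of 22Rv1 (−0.42, adjusted p = 0.112). The beta subunit gene EIF2S2 was at 233 ± 10.1, 152 ± 2.65 and 230 ± 16.6 CPM, and the gamma subunit gene EIF2S3 at 190 ± 10.0, 106 ± 5.26 and 221 ± 36.1, in LNCaP, 22Rv1 and PC3. Both were lower in 22Rv1 than in LNCaP, by −0.61 and −0.84 on the log2 scale (SE 0.14 and 0.15), and neither differed past the threshold between PC3 and LNCaP. EIF2D was 2.76-fold higher in PC3 than in LNCaP (log2 difference 1.46, SE 0.18, edgeR adjusted p = 2.2e-08).

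The eIF2B subunits showed no common direction. EIF2B5, the catalytic subunit gene, held 64.8 ± 4.72 CPM in LNCaP, 46.3 ± 6.27 in 22Rv1 and 53.6 ± 4.32 in PC3, with a log2 difference of −0.50 between 22Rv1 and LNCaP (SE 0.20, edgeR adjusted p = 0.0406). EIF2B4 was lower in both other lines than in LNCaP (−0.94, SE 0.28, and −0.83, SE 0.27). EIF2B1 was higher in 22Rv1 than in LNCaP (0.58, SE 0.22, edgeR adjusted p = 0.0359) and EIF2B3 higher in PC3 than in 22Rv1 (1.37, SE 0.37, adjusted p = 0.00204). Between 22Rv1 and LNCaP, DESeq2 did not call EIF2B1 (adjusted p = 0.108) or EIF2B5 (0.172), nor did edgeR without the expression filter (0.0653 and 0.141), and relative log expression scaling left EIF2B5 at 0.0506. Leaving out replicate 1 of 22Rv1 ended the call of EIF2B1 (edgeR adjusted p = 0.147), EIF2B4 (0.051) and EIF2B5 (0.116), leaving out replicate 2 of LNCaP that of EIF2B4 (0.0577) and EIF2B5 (0.0589), and leaving out replicate 1 or 3 of LNCaP that of EIF2B1 (0.0667 and 0.159) and EIF2B5 (0.118 and 0.102). Without replicate 2 of 22Rv1 the adjusted p of EIF2B1 was 0.0544, and without replicate 3 of 22Rv1 that of EIF2B5 was 0.143.

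Among the scanning factors EIF1AX, the X-linked eIF1A gene, was at 378, 422 and 472 CPM in PC3 against 142 to 181 in LNCaP and 125 to 135 in 22Rv1. The PC3 libraries were higher than all others, by 1.43 against LNCaP and 1.71 against 22Rv1 on the log2 scale (SE 0.14 for each). Its Y-linked counterpart EIF1AY was called lower in PC3 than in both other lines, and its levels are not given. EIF1 went the other way and was highest in LNCaP, at 2682 ± 227 CPM against 1542 ± 61.1 in 22Rv1 and 1692 ± 101 in PC3 (log2 differences −0.80 and −0.67, SE 0.10 for each). EIF5, which activates GTP hydrolysis by eIF2, held 147 ± 22.6, 106 ± 11.5 and 182 ± 29.2 CPM, and was called between 22Rv1 and LNCaP (−0.49, SE 0.16) and between PC3 and 22Rv1 (0.78, SE 0.16). The first of these calls was lost without replicate 3 of LNCaP (edgeR adjusted p = 0.17), replicate 1 of 22Rv1 (0.0594) or replicate 2 of 22Rv1 (0.0548), and with DESeq2 (0.0531).

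The eIF3 subunits divided. EIF3A, EIF3D, EIF3F, EIF3K and EIF3M were lower in PC3 than in LNCaP, with EIF3A at 50.3, 51.5 and 50.6 CPM in PC3 against 97.8 to 108 in LNCaP (log2 difference −1.0, SE 0.19, edgeR adjusted p = 3.3e-05). EIF3E and EIF3H were higher in PC3. EIF3H held 1151, 1177 and 1182 CPM there against 591 to 659 in LNCaP and 545 to 702 in 22Rv1, so that its PC3 libraries stood above every other siCtrl library (0.90, SE 0.11, adjusted p = 3.4e-08 against LNCaP). EIF3E held 303 ± 21.4 CPM in PC3, 179 ± 24.6 in LNCaP and 183 ± 8.13 in 22Rv1 (0.75, SE 0.14, adjusted p = 3.1e-05 against LNCaP). The highest members in PC3 by fold were EIF3C and EIF3CL, at 1.91 (SE 0.40) and 1.90 (SE 0.16) against LNCaP. The coding sequences and the last 300 transcript bases of these copies are 100% identical, so that reads cannot be assigned to either from sequence alone. EIF3CL took 82.1% to 90.9% of their joint counts in 14 of the 16 libraries but 49.5% in replicate 2 of LNCaP siMED12 and 74.7% in replicate 1 of 22Rv1 siCtrl. Each is therefore uncertain on its own.

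Among the regulators of eIF4F, the 2 inhibitors of eIF4E that passed the filter differed in opposite directions between PC3 and LNCaP. EIF4EBP1 held 325, 248 and 269 CPM in LNCaP, 131, 117 and 166 in 22Rv1 and 115, 163 and 172 in PC3, and was lower than in LNCaP by −1.01 (SE 0.17, edgeR adjusted p = 1.6e-05) and −0.90 (SE 0.17, adjusted p = 3.6e-05). EIF4EBP2 held 96.1, 83.1 and 108 CPM in LNCaP, 70.3, 76.9 and 88.5 in 22Rv1 and 213, 227 and 250 in PC3, where it was higher by 1.25 than in LNCaP (SE 0.15, adjusted p = 1.1e-08). EIF4EBP1 was thus highest in LNCaP and EIF4EBP2 in PC3. Their target EIF4E was not called in any pair of lines, at 50.7 ± 5.30, 46.7 ± 11.3 and 52.1 ± 1.62 CPM. The weakly expressed relative EIF4E3 held 33.5, 41.0 and 37.6 CPM in PC3 against 8.28 to 17.0 in LNCaP and 2.57 to 8.36 in 22Rv1 (2.83, SE 0.38, edgeR adjusted p = 2.0e-07 for PC3 against 22Rv1).

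EIF4B held 616, 652 and 665 CPM in LNCaP, 483, 600 and 583 in 22Rv1 and 197, 211 and 178 in PC3. All PC3 libraries lay below all others, by −1.72 against LNCaP (SE 0.13, edgeR adjusted p = 1.5e-12) and −1.5 against 22Rv1 (SE 0.13, adjusted p = 4.2e-11). The scaffold genes differed less: EIF4G1 was at 279 ± 40.9, 229 ± 24.8 and 195 ± 43.7 CPM (−0.51, SE 0.15, for PC3 against LNCaP, not called without replicate 3 of PC3, edgeR adjusted p = 0.0679) and EIF4G2, which lacks the eIF4E-binding part, was lower in 22Rv1 than in LNCaP (−0.74, SE 0.13). The helicase genes EIF4A2 and EIF4A3, the latter a component of the exon junction complex, held 122 ± 23.8 and 119 ± 10.2 CPM in LNCaP, 96.0 ± 18.5 and 134 ± 11.5 in 22Rv1, and 96.9 ± 21.0 and 163 ± 12.1 in PC3, and of these only EIF4A3 between PC3 and LNCaP was called (0.45, SE 0.15).

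**Figure D4:**
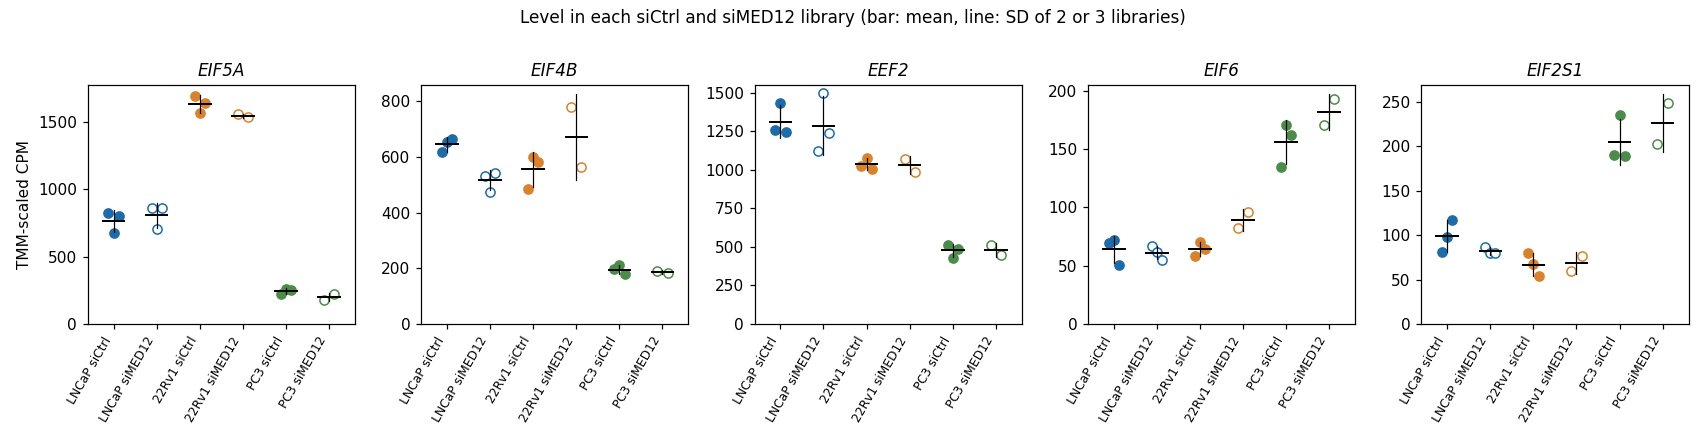
Level of EIF5A, EIF4B, EEF2, EIF6 and EIF2S1 in each of the 16 libraries (y axis, TMM-scaled CPM, starting at 0) by line and treatment (x axis, filled siCtrl, open siMED12), with the group mean and SD. EIF5A runs from 221 to 263 CPM in PC3 siCtrl and from 1564 to 1694 in 22Rv1 siCtrl, whereas EIF6 and EIF2S1 are highest in PC3.

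The members with elongation factor names were lower in PC3 except for 2 of them. EEF2 held 1258, 1434 and 1248 CPM in LNCaP, 1022, 1080 and 1005 in 22Rv1, and 513, 431 and 488 in PC3, in 3 ranges that did not overlap (PC3 against LNCaP −1.46, SE 0.12, edgeR adjusted p = 3.6e-12). EEF1A2, the paralog of EEF1A1 best known from muscle and neurons, held 1067, 1161 and 1187 CPM in LNCaP, 474, 547 and 570 in 22Rv1 and 386, 360 and 406 in PC3 (−1.10, SE 0.12, and −1.57, SE 0.13, against LNCaP). EEF1A1 differed less, by −0.48 between PC3 and LNCaP (SE 0.09, adjusted p = 7.1e-05) and by −0.30 between PC3 and 22Rv1 (SE 0.09, adjusted p = 0.00741, or 0.0518 without replicate 3 of 22Rv1). EEF1B2 was lower in PC3 as well (−0.42, SE 0.13, against LNCaP). In contrast EEF1D, the delta subunit of eEF1B, was at 881 ± 62.9 CPM in PC3 against 686 ± 67.0 in LNCaP and 483 ± 36.9 in 22Rv1, and EEF1E1, a scaffold protein of the tRNA synthetase complex that carries an eEF1 name, was at 131 ± 12.4 CPM against 58.6 ± 8.07 and 71.6 ± 14.3. Both were called higher in PC3 than in each other line. Of the modifying enzymes EEF1AKMT2 and EEF1AKMT4 were called higher in PC3 than in LNCaP, and EEF2K, the kinase that inhibits eEF2, was not called in any pair of lines (18.0 ± 1.91, 17.0 ± 3.76 and 12.5 ± 2.62 CPM). Of the 12 members on the 5′ TOP list, 7 were called lower in PC3 than in LNCaP and 3 called higher, against 25.5% and 29.2% of all genes, and by sign 8 lay below 0 and 4 above. In 22Rv1 against LNCaP 6 were called lower and 0 called higher, against 21.2% and 22% of all genes, and by sign 9 lay below 0 and 3 above.

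Genes that act around these factors were taken from 7 lists of 54 genes in all, 49 of them tested. After siMED12, 1 of 49 was called in LNCaP, against 0.416% of all genes, 0 in 22Rv1, against 1.84%, and 0 in PC3, against 0%. The called gene was DDIT3, which encodes the stress transcription factor CHOP, with a log2 fold change of −1.32 in LNCaP (SE 0.29, edgeR adjusted p = 0.0259). ATF4, the factor whose translation rises when eIF2 is phosphorylated, had −0.29 there (SE 0.15, edgeR adjusted p = 0.685). Between siCtrl lines 9 of 49 were called higher and 10 lower in 22Rv1 than in LNCaP, against 22% and 21.2% of all genes. In PC3 14 were called higher and 10 lower than in LNCaP, against 29.2% and 25.5%, and 12 higher and 6 lower than in 22Rv1, against 28.7% and 26.1%. ATF4 was lower in PC3 than in LNCaP by −1.31 (SE 0.15, edgeR adjusted p = 1.4e-08) and DDIT3 by −2.20 (SE 0.33, adjusted p = 1.2e-06). PPP1R15A, on the same integrated stress response list, was called higher in PC3, and the median of the 5 tested genes of this list was 0.06. PABPC1, the poly(A)-binding protein that joins eIF4G at the cap, was higher in PC3 than in LNCaP by 0.61 (SE 0.11, edgeR adjusted p = 1.5e-05). LARP1, which binds 5′ TOP mRNAs, was lower in 22Rv1 than in LNCaP by −0.72 (SE 0.17, edgeR adjusted p = 6.7e-04). Calls on their shared list of poly(A)-binding and cap-proximal regulators went both ways. In PC3 CYFIP1 was also called higher than in LNCaP, and GIGYF1 and PDCD4 lower. In 22Rv1 LARP4 and CYFIP1 were called higher than in LNCaP, and PDCD4 lower.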

How the data were processed

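The libraries were made by BRB-seq, which barcodes samples at reverse transcription and sequences 3′ ends. Reads were aligned and counted by the authors in STARsolo on Gencode 43 (GRCh38.p13). The authors deposited raw counts for 62703 genes and a log2 CPM table of 10566 genes made from them. Whether molecular identifiers were collapsed is not given in the sources used here. The deposited log2 values were recomputed from the deposited counts with edgeR, to within 5.0e-14.

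All 16 libraries entered 1 quasi-likelihood fit of edgeR 4.0.16 in R 4.3.3, with a mean for each of 6 groups, TMM scaling and the filterByExpr filter (at least 10 counts, total at least 15). Adjusted p is Benjamini-Hochberg over 10566 genes, 2-sided. Levels are TMM-scaled CPM. The SE is the log2 fold change divided by the root of its F statistic. Over genes, the biological coefficient of variation had a common value of 0.125.

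Replicate numbers come from the labels. In LNCaP same-numbered siCtrl and siMED12 libraries deviated together in 3 of 3 pairs (r = 0.177, 0.132 and 0.135 over 6720 genes). The main fit did not pair them, and the fit with the replicate number as a block is given beside it. The other lines have 2 pairs each, too few for such a check. The block fit nonetheless used the replicate numbers of all 3 lines. No library was a copy of another: replicates differed by 1.54 to 3.19 times the sampling variance.

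Named members were every member past the threshold after siMED12, or the 3 with the smallest p, the 6 highest and 6 lowest called members with at least 20 CPM between lines, and a fixed set. The fixed members not past the threshold after siMED12 are given as levels and ranges. The members, lists and tests were chosen with earlier results of these data known. Alternatives were relative log expression scaling, no filter, a stricter filter, DESeq2 1.42.0, limma 3.58.1, the replicate block and leaving out each library, and, added after the data were seen, the legacy edgeR test. Gene overlaps come from Gencode 44 and starts from RefSeq, GRCh38.p14. Protein sequences were not used here, and the levels of the markers of LNCaP and 22Rv1 are not reported here.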

Additional observations from a re-analysis of the deposited data

Results flagged for a closer look

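Pseudogenes named after members were left out by the naming rule, and 18 of them passed the expression filter. In 13 of these every library held more than 3 counts, the level that a count of 0 cannot exclude, and that is what draws attention to them. Their mean levels over the 16 libraries were 3923 CPM for EEF1A1P6, 586 for EEF1A1P13, 434 for EEF1A1P5, 303 for EEF1B2P3, 218 for EEF1B2P6, 122 for EIF3FP3, 104 for EIF4A1P2, 98.5 for EIF4A1P10, 92.3 for EIF4BP6, 47.3 for EEF1DP2, 38.1 for EIF1AXP1, 32.9 for EEF1A1P11 and 24.3 for EIF2S2P4. EIF4A1 itself was at 0 counts in every library.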

How the results depend on the processing

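The member counts between siCtrl lines stayed within 1.5 times their main values: 17 to 27 under the other settings and 18 to 22 without 1 library for 22Rv1 against LNCaP, 29 to 35 and 31 to 35 for PC3 against LNCaP, and 25 to 31 and 26 to 29 for PC3 against 22Rv1. After siMED12 the count in LNCaP was 2 with the replicate block and 0 otherwise. The count in 22Rv1 was 0 with DESeq2 and ran from 0 to 1 without 1 library, 0 being reached without replicate 3 of siCtrl and without replicate 1 of siMED12. For the difference in effect between 22Rv1 and LNCaP it was 1 without the expression filter and 1 with the block. For PC3 against 22Rv1 it was 1 without the filter, 1 with the block and from 0 to 1 without 1 library, 1 being reached without replicate 1 of PC3 siCtrl. Each of these single members was EIF2D, whose log2 fold change in 22Rv1 ran from 0.732 to 1.02 without 1 library and from 0.849 to 0.924 otherwise. The block changed no other siMED12 call of a member. In 22Rv1 and PC3, with 2 same-numbered pairs each, deviations correlated at r = 0.19 and 0.253 and at r = 0.117 and 0.0787, and no source used here says whether they were paired. Of 77 named values, 60 kept their side of the threshold under all alternatives run and 0 changed sign. Of 162 values of fixed members not past the threshold, 67 changed sign in some alternative and 5 passed it. The cause of these shifts was not tested. Leaving a library out of an arm of 2 left 1, assumed to vary as the other groups do. Depth limits the scarce members: 3 counts are 3.02 to 6.26 CPM.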

Other observations

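The pseudogenes that carry the name of a member can be set beside it. The 6 EEF1A1 pseudogenes of the expression table together took 29.0% to 30.7% of the joint CPM of EEF1A1 and its pseudogenes in every library, whatever the line or treatment. The 3 EIF4B pseudogenes took 28.8% to 30.3% in LNCaP siCtrl and 25.5% to 28.4% in 22Rv1 siCtrl but 11% to 14.6% in PC3 siCtrl, the line in which EIF4B was lowest. EIF4BP6 was lower in PC3 than in LNCaP by −3.38 on the log2 scale (SE 0.22, edgeR adjusted p = 2.1e-14), beside −1.72 for EIF4B. The 2 EEF1B2 pseudogenes held more than their parent, 54.1% to 64.8% of the joint CPM. The 3 EIF4A1 pseudogenes summed to 259 ± 21.4 CPM in LNCaP siCtrl, 167 ± 37.8 in 22Rv1 siCtrl and 219 ± 29.7 in PC3 siCtrl (SD, n = 3), and to 257 ± 59.1, 119 ± 11.8 and 223 ± 57.5 after siMED12 (n = 3, 2 and 2). The origin of these tags was not tested.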
